A study of Rattus norvegicus with 31 samples.

Results

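Schwann cell and myelin genes were followed in the fat around the thoracic aorta and in brown fat of rats with a narrowed aorta. The 8 genes were Mbp, Pmp22, Prx, Mal and Mag, which belong to myelin, and Sox10, S100b and Lgi4, which Schwann cells of every kind use. They were found by gene name in the count and FPKM tables, where each had 1 row among 32883 gene entries. The aorta was narrowed at mid-thorax (coarctation), which raises the pressure upstream of the ligature, and by telemetry the systolic values on its sides differed by some 20 mmHg when 4 weeks had passed. Fat lying on the aorta, called perivascular adipose tissue (PVAT), was taken above and below the ligature, and the second depot was brown adipose tissue (BAT). Whole tissue RNA was sequenced in 31 libraries.

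The rats were male Sprague-Dawley, also labelled SD/Rij, with age given as 10 to 15 weeks and the time point as 15 weeks. In coarcted rats a silk ligature was tied around the aorta and a blunt needle, which was then withdrawn. In sham rats the ligature was placed and not tightened, so every animal had an opened chest. PVAT above the ligature was sequenced in 6 libraries of coarcted rats (coarct above) and 5 of sham rats (sham above). Below the ligature there were 6 libraries from coarcted rats (coarct below) and 5 from sham rats (sham below). BAT gave 5 libraries from coarcted rats (coarct BAT) and 4 from sham rats (sham BAT). Libraries are named by their group and the number in their title. No source says that a number is 1 rat or that libraries of a group come from separate rats, so a p-value here reflects only how these samples scatter.

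Schwann cells ensheath the axons of peripheral nerves. Myelinating Schwann cells wrap 1 axon each in compact myelin, a membrane stack that holds Pmp22 and Mbp. Non-myelinating (Remak) Schwann cells hold several thin axons, among them sympathetic axons, and keep adhesion molecules and the neurotrophin receptor Ngfr that myelinating cells turn down. Sox10 is the transcription factor that specifies Schwann cells and drives myelin genes. Brown and perivascular fat are densely supplied by sympathetic fibres.

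The promoters of Prx and Mag are shown because Prx varied most between libraries of the 7 members tested, and the Mag window holds a core motif of Sox factors. RefSeq (GRCr8) gave the 250 bases before the start of 6 of the 8 genes in 7 windows, and Sox10 and Lgi4 are named only. The motif letters searched were ACAAAG and ACAATG on both strands, which do not overlap each other. Capitals mark the match, which in Mag is CTTTGT, the first motif read on the opposite strand, and lies 152 bases before the start. The Prx window lies at chr1:91914171-91914420 on the plus strand and the Mag window at chr1:95291045-95291294 on the minus strand, both in GRCr8 and written 5′ to 3′.
Prx: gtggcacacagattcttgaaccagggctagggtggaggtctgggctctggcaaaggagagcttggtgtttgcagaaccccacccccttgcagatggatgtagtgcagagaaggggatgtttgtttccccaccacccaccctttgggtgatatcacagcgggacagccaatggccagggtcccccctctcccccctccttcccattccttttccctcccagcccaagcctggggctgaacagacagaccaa
Mag: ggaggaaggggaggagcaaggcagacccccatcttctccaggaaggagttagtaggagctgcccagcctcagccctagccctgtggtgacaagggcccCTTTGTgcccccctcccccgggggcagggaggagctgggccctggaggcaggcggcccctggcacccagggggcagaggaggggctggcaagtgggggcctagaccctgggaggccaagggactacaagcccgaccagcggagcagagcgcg

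A motif match was present in 2 of the 7 windows, those of Mag and the second of Mbp, where it occurred at 240, 197 and 162 bases before the start. Of all 33469 windows of the same length, 25.3% held a match. A match describes letters only and is no measured site.

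The members covered a wide range of levels. Scaled to gene length, S100b had the highest median over the 31 libraries, 120 FPKM (fragments scaled to gene length and to the library total), and ran from 79.1 to 336 FPKM. S100b encodes a calcium-binding protein of glia that adipocytes also make. Pmp22, a tetraspan protein of compact myelin that fibroblasts also use, had a median of 57.3 FPKM and a range of 38.0 to 128 FPKM. Mbp, whose protein seals the cytoplasmic faces of myelin, had a median of 31.8 FPKM and ran from 12.4 to 79.9 FPKM. The other 5 genes were low, at a median FPKM of 2.12 for Lgi4, 1.42 for Mal, 1.10 for Prx, 0.887 for Sox10 and 0.0188 for Mag. The members with the highest levels were thus not those with the most restricted expression: S100b and Pmp22 exceeded Sox10 in FPKM in every library.

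The files place Mbp (ENSRNOG00000016516) on chromosome 18 from position 79326738 and Pmp22 (ENSRNOG00000003338) on chromosome 10 from 49538588. They place Prx (ENSRNOG00000018369) on chromosome 1 from 84304228, Mag (ENSRNOG00000021023) from 89345429 and Lgi4 (ENSRNOG00000021087) from 89491654 of the same chromosome. Mal (ENSRNOG00000015445) is on chromosome 3 from 120209647, Sox10 (ENSRNOG00000011305) on chromosome 7 from 120393254 and S100b (ENSRNOG00000001295) on chromosome 20 from 13130636. The genome build of these positions is not given in the sources used here, and they are not those of the GRCr8 windows.

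Totals ran from 15713160 to 26530733 counts per library, and levels below are in CPM, counts scaled to that total. The summed CPM of 5 adipocyte markers was 5362 to 8791 in the 31 libraries, and that of 4 melanocyte markers, another cell type that uses Sox10, was 0.386 to 1.71. Transcripts of sympathetic neurons split the libraries. The summed CPM of 20 noradrenergic neuron genes was 672 in coarct below 23, 1072 in coarct below 25, 413 in coarct below 29, 613 in coarct below 30 and 675 in sham below 28, against 11.6 to 25.2 in the other 26 libraries. Of 4 markers of satellite glia, which surround ganglion neurons, Kcnj10 was 0.883 to 3.06 CPM in the 5 libraries with neuron transcripts. It was 0.0547 to 0.508 CPM in the 6 others from below the ligature, but reached 1.23 CPM in sham above 26. Fabp7 had 1 to 6 counts in the 5 and 0 to 1 in the 6, and the ranges of Slc1a3 and Entpd2 overlapped. The part of satellite glia in the members' levels was not tested. Prx was high without the neuron genes in sham above 22 (13.2 CPM), sham BAT 22 (37.6 CPM) and coarct BAT 30 (12.4 CPM), against 2.43 to 6.28 CPM in the remaining 23 libraries. The summed CPM of 6 cardiac muscle genes also differed by site, at 0.377 to 2593 in coarct above and 32.5 to 1615 in sham above, against 0.273 to 11.9 in coarct below, 0.169 to 4.84 in sham below and 0.0987 to 3.73 in BAT. The libraries also divided by 12S mitochondrial rRNA into 17 at 2572 CPM or more and 14 at 79.0 CPM or less, and both sides hold libraries of all 6 groups.

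**Figure D1:**
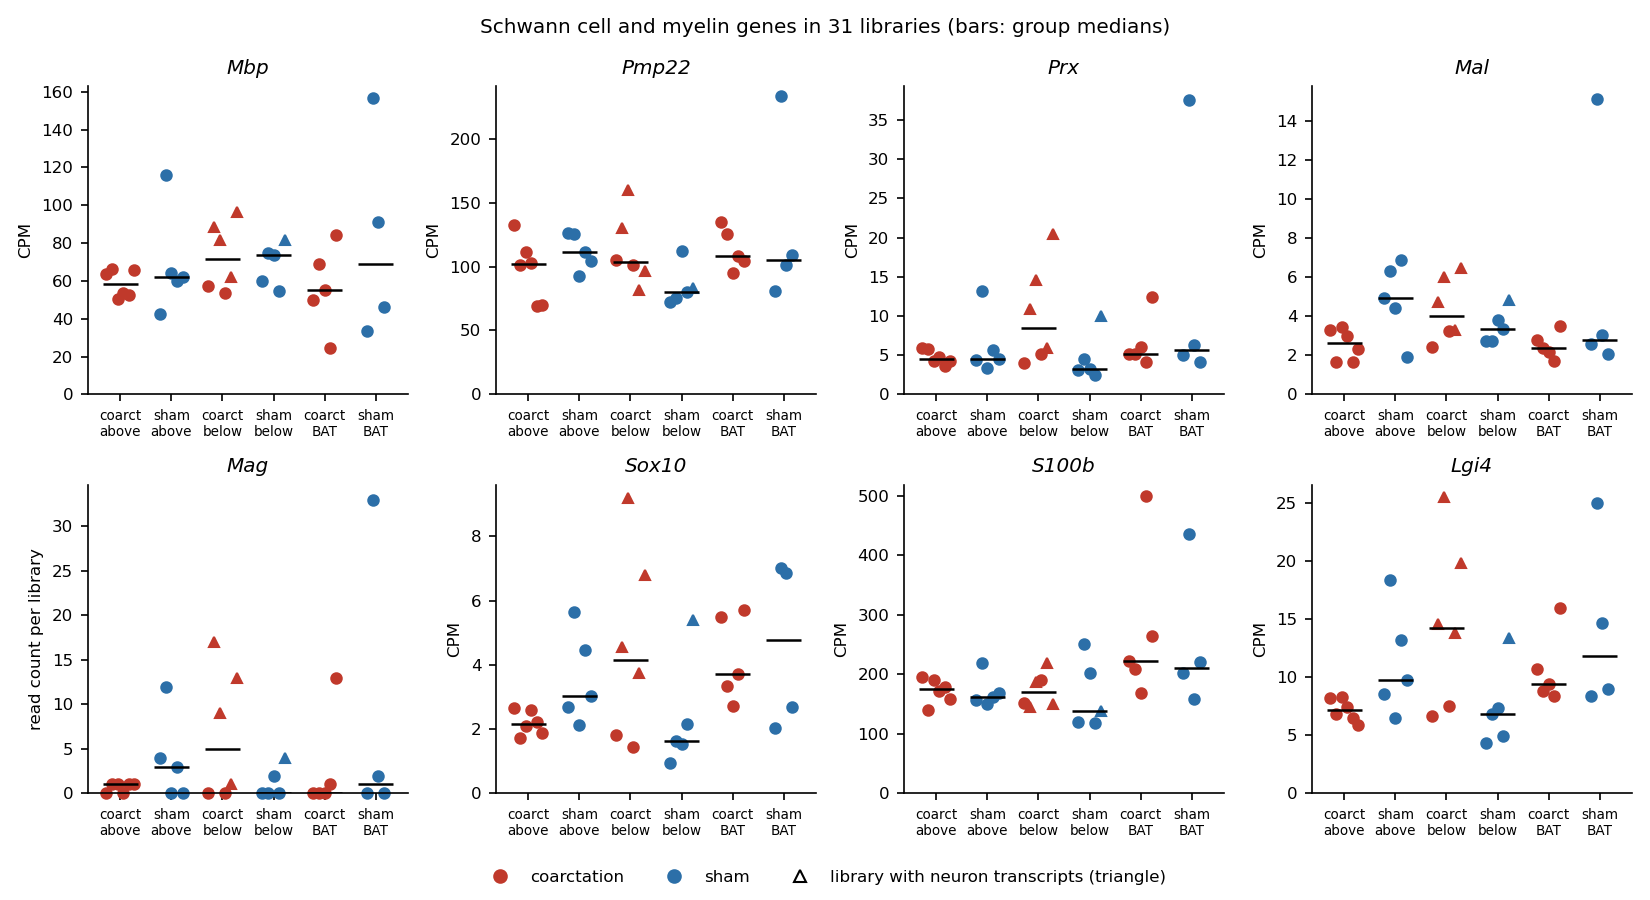
Level of the 8 genes in each of the 31 libraries by group, in CPM, except Mag, which is given as the read count per library; bars are group medians, triangles mark the 5 libraries with neuron transcripts, red is coarctation and blue is sham. Below the ligature, Prx, Sox10 and Lgi4 are higher in each triangle than in each other library, while S100b has its highest point, 499 CPM, in coarct BAT.

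Prx encodes periaxin, a scaffold of the outermost myelin membrane. Coarct above had 3.68, 4.53 and 5.91 CPM (lowest, median and highest of 6), and sham above 20, 22, 24, 26 and 28 had 4.39, 13.2, 3.41, 5.69 and 4.47 CPM. Coarct below ran from 3.99 to 20.5 CPM with a median of 8.40 CPM, and sham below had 3.05, 4.55, 3.20, 2.43 and 9.99 CPM. Coarct BAT 19, 23, 27, 29 and 30 had 5.08, 5.12, 6.10, 4.15 and 12.4 CPM, and sham BAT 20, 22, 24 and 26 had 5.03, 37.6, 6.28 and 4.08 CPM. In each of the 5 groups other than coarct above, 1 to 3 libraries stood high in Prx: 1 in each sham group and in coarct BAT, and 3 in coarct below. The whole span was 15.5-fold, the widest of the 7 members that could be compared so.

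Mag, the myelin-associated glycoprotein of the membrane next to the axon, was close to the limit of detection. It had no count in 14 of 31 libraries, where a count of 0 still allows up to 3 counts. The largest counts were 33 in sham BAT 22, 17 in coarct below 23, 13 in coarct below 30, 13 in coarct BAT 30, 12 in sham above 22 and 9 in coarct below 25. No other library had more than 4. All 6 libraries with 9 or more Mag counts were thus among the 8 that had neuron transcripts or were high in Prx.

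Mal, a lipid-raft proteolipid of myelin that epithelia also use, had 1.64, 2.63 and 3.45 CPM in coarct above and 4.91, 6.31, 4.40, 6.86 and 1.92 CPM in sham above. Coarct below ran from 2.41 to 6.47 CPM with a median of 4.03 CPM, and sham below from 2.73 to 4.84 CPM with a median of 3.33 CPM. Sham BAT 22 stood far above every other library, at 15.1 CPM, whereas coarct BAT ran from 1.73 to 3.49 CPM and the other 3 sham BAT libraries from 2.07 to 3.03 CPM.

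Mbp and Pmp22 varied less. Mbp had 50.6, 58.5 and 66.4 CPM in coarct above, and sham above had 42.5, 116, 64.4, 59.8 and 62.3 CPM. Below the ligature Mbp averaged 73.2 ± 18.1 CPM in coarct below (SD, n = 6) and 69.0 ± 11.3 CPM in sham below (SD, n = 5). In BAT it spanned 24.3 CPM, in coarct BAT 29, to 156 CPM, in sham BAT 22, the lowest and the highest of all libraries. Pmp22 averaged 97.9 ± 24.7 CPM in coarct above, 112 ± 14.3 CPM in sham above, 113 ± 27.9 CPM in coarct below, 84.6 ± 15.8 CPM in sham below, 114 ± 16.3 CPM in coarct BAT and 131 ± 69.1 CPM in sham BAT (SD, n = 6, 5, 6, 5, 5 and 4). Sham BAT 22 was again the highest, at 233 CPM, and the same library had the highest summed CPM of 5 fibroblast genes, 7457. The part of other cell types in these levels was not tested.

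Among the shared genes, Sox10 had 1.73, 2.16 and 2.65 CPM in coarct above, and sham above had 2.69, 5.63, 2.12, 4.46 and 3.03 CPM. Coarct below ran from 1.44 to 9.19 CPM with a median of 4.15 CPM, and sham below had 0.935, 1.63, 1.54, 2.14 and 5.41 CPM. Coarct BAT had 5.50, 3.33, 2.71, 3.70 and 5.72 CPM, and sham BAT had 2.05, 7.01, 6.85 and 2.69 CPM. In 4 of the 5 sham above libraries Sox10 lay above every coarct above library. At the margin, sham above 20 (2.69 CPM) and coarct above 19 (2.65 CPM) both had 52 counts, so the library totals set their order. The log2 difference of coarct above from sham above was -0.64 (SE 0.426, adjusted p = 0.999 in edgeR's test). The share of all genes with such a separation was not counted. Below the ligature the 5 libraries with neuron transcripts had 3.74 to 9.19 CPM, above the 0.935 to 2.14 CPM of the 6 without.

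Lgi4, a secreted protein that Schwann cells use to signal through Adam22 in the onset of myelination, also separated these libraries. It had 5.91, 7.16 and 8.27 CPM in coarct above, and 8.58, 18.4, 6.52, 13.2 and 9.74 CPM in sham above. Coarct below ran from 6.67 to 25.5 CPM with a median of 14.2 CPM, and sham below had 4.33, 6.85, 7.38, 4.91 and 13.4 CPM. Coarct BAT had 10.7, 8.83, 9.43, 8.39 and 16.0003 CPM, and sham BAT had 8.36, 24.99, 14.7 and 8.99 CPM. The ratio of Lgi4 to Sox10 in FPKM kept within 1.46 to 3.90 in the 31 libraries, with a median of 2.38.

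S100b behaved unlike Sox10 and Lgi4. It had 140, 175 and 196 CPM in coarct above, and 157, 218, 150, 162 and 168 CPM in sham above. Coarct below ran from 146 to 218 CPM with a median of 169 CPM, and sham below had 119, 251, 201, 117 and 138 CPM. Coarct BAT had 222, 208, 169, 499 and 265 CPM, and sham BAT had 202, 435, 158 and 221 CPM. Below the ligature the 5 libraries with neuron transcripts (138 to 218 CPM) lay inside the range of the 6 without (117 to 251 CPM). The library highest in S100b, coarct BAT 29, had the lowest summed CPM of non-myelinating Schwann markers, 9.87, and of endothelial markers, 152, and the lowest Mbp.

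Differences between groups were tested with edgeR's quasi-likelihood test over all genes, and a gene was called at an adjusted p under 0.05. Mag fell under the filter on low counts, which left 7 members and 70 tests in 10 comparisons. None was called, and 24 had an unadjusted p under 0.05. The comparisons share libraries and members moved together (r up to 0.921, Sox10 and Lgi4), so the 24 are not separate results. Counts of all genes at that level are given below for some comparisons only, so the 24 have no common background here. In whole tissue, fewer Schwann cells and less RNA per Schwann cell cannot be told apart. All log2 differences below are of normalised counts, with the standard error (SE).

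PVAT above the ligature addresses higher pressure, and there 6 of the 7 tested members had a negative difference from sham, the exception being S100b. Mal had the lowest p: its log2 difference was -0.89 (SE 0.290), with an adjusted p of 0.999 in edgeR's test. The CPM of 4 of the 5 sham above libraries exceeded that of every coarct above library, and sham above 28 lay within their range. How many of all genes separated in this way was not counted. None of the 7 members was called by edgeR or by the DESeq2 Wald test, and 1 had an unadjusted p under 0.05. Over all 14556 genes tested 0% were called by edgeR, where 523 had an unadjusted p under 0.05, and DESeq2 called 8 genes. All 13 tested genes of the myelinating list (17 genes, including the 5 members) had a negative difference, with a median of -0.89 against 0.0055 over all genes, and none was called. The median was -0.21 over 6 non-myelinating genes and -0.46 over 6 shared genes. The same-sign genes share libraries, so they are not separate support for a difference. Sham above 22 was the highest of its group in Mbp, 116 CPM, and Prx, 13.2 CPM, whereas sham above 26 was in Mal. By group median, Prx was 4.53 CPM in coarct above and 4.47 CPM in sham above, and Mbp 58.5 and 62.3 CPM. Signs over the list without sham above 22 are not given here. Ugt8, which makes the myelin lipid galactosylceramide, had a difference of -2.18 (SE 0.856, adjusted p = 0.999 in edgeR's test), and -0.94 without sham above 22.

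Below the ligature 5 of the 7 tested members had a positive difference from sham, and Mbp (-0.016) and S100b (-0.019) lay close to 0. Lgi4 differed by 0.87 on the log2 scale between coarct below and sham below (SE 0.317, adjusted p = 0.881 in edgeR's test). Prx differed by 1.01 (SE 0.424) and Pmp22 by 0.30 (SE 0.140), both with an adjusted p of 0.881 in edgeR's test. Coarct below 23, 25, 29 and 30 had more Lgi4, 13.8 to 25.5 CPM, than every sham below library, of which the highest was sham below 28 at 13.4 CPM. Coarct below 19, at 6.67 CPM, lay among the other 4 sham libraries, and coarct below 27, at 7.50 CPM, just above the highest of them, 7.38 CPM. The 4 high libraries and sham below 28 are those with neuron transcripts. Without those 5 libraries the difference was 0.22 for Lgi4, 0.40 for Prx and 0.24 for Pmp22, over 2 coarct and 4 sham libraries, with an adjusted p of 0.886, 0.847 and 0.836 in edgeR's test. With sham below 28 alone left out it was 1.21 for Lgi4 and 1.52 for Prx, with an adjusted p of 0.0572 and 0.0779 in the same test. Without coarct below 30 the log2 difference of Prx was 0.65. Within the side of high 12S rRNA the differences were 0.68 for Lgi4 and 1.15 for Prx, and within the low side, which holds 1 sham below library, 1.65 and 1.27.

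None of the 7 members was called below the ligature by edgeR or DESeq2, and 3 had an unadjusted p under 0.05. Of all 14556 genes 0% were called by edgeR, 746 had an unadjusted p under 0.05, and DESeq2 called 1. Of 13 myelinating genes 11 had a positive difference, with a median of 0.57 against 0.014 over all genes. All 6 non-myelinating genes had one, with a median of 0.94, as did 5 of 6 shared genes, with a median of 0.59. Of 18 neuron genes tested all 18 had a positive difference, with a median of 1.61. Besides members, the lowest p in the myelinating list went to Fa2h, which hydroxylates myelin lipids, Pllp, a tetraspan of myelin vesicles, and Cnp, a myelin phosphodiesterase. Fa2h averaged 0.707 ± 0.660 CPM in coarct below and 0.113 ± 0.0893 CPM in sham below, and Cnp 21.4 ± 9.15 CPM and 13.2 ± 2.55 CPM in the same order (SD, n = 6 and 5). Pllp went the other way, at 39.6 ± 12.4 CPM in coarct below and 64.6 ± 23.9 CPM in sham below. The log2 differences were 2.51 (SE 0.932) for Fa2h, 0.57 (SE 0.230) for Cnp and -0.78 (SE 0.304) for Pllp, each with an adjusted p of 0.881 in edgeR's test. Fa2h was -1.89 and Cnp 0.12 without the 5 libraries with neuron transcripts.

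Between the sides of the tied ligature, 6 of the 7 tested members lay lower above it than below it, again except S100b. Markers of other cell types moved with the site. All 5 cardiac muscle genes tested were called higher in coarct above by edgeR, and all 18 neuron genes tested were lower, with a median log2 difference of -6.84, each with an unadjusted p under 0.05 and none called. The part of these cells in the members' differences was not tested, beyond the fit without the libraries with neuron transcripts. The log2 difference of coarct above from coarct below was -0.96 for Lgi4 (SE 0.299, adjusted p = 0.196), -1.04 for Prx (SE 0.399, adjusted p = 0.490), -0.99 for Sox10 (SE 0.409, adjusted p = 0.626) and -0.73 for Mal (SE 0.278, adjusted p = 0.476) in edgeR's test. These 4 of the 7 tested members had an unadjusted p under 0.05 and none was called by either tool. The count of all genes under that unadjusted level is not given here. By edgeR 0.103% of all 14556 genes were called, 15 genes, and DESeq2 called 222. Without the 4 libraries with neuron transcripts and sham below 28, Lgi4 was 0.030, Prx 0.081, Sox10 0.44 and Mal -0.14, with 2 coarct below libraries left. Leaving out coarct below 30 alone gave -0.67 for Prx.

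All 13 myelinating genes tested were lower in coarct above than in coarct below, with a median log2 difference of -1.04, as were all 6 non-myelinating genes, with a median of -1.68. Over all genes the median was 0.0052. The shared list was split, with 4 of 6 genes lower and a median of -0.68. Ugt8 averaged 0.195 ± 0.202 CPM in coarct above and 1.45 ± 1.243 CPM in coarct below (SD, n = 6 each), a log2 difference of -2.81 (SE 0.829, adjusted p = 0.159 in edgeR's test). Drp2, whose protein binds periaxin in the outer myelin membrane, averaged 0.664 ± 0.291 CPM and 2.84 ± 2.25 CPM in the same order, a log2 difference of -2.04 (SE 0.761, adjusted p = 0.432 in edgeR's test). Ngfr, the neurotrophin receptor of non-myelinating Schwann cells and of sympathetic neurons, averaged 5.68 ± 1.79 CPM and 22.2 ± 15.5 CPM, a log2 difference of -1.90 (SE 0.563, adjusted p = 0.160 in edgeR's test). L1cam, an adhesion molecule of the same cells and of axons, averaged 3.94 ± 1.35 CPM in coarct above and 14.4 ± 10.3 CPM in coarct below, a log2 difference of -1.81 (SE 0.549, adjusted p = 0.177 in edgeR's test). DESeq2 called Ugt8, Ngfr and L1cam, with an adjusted p of 0.0361, 0.0233 and 0.0345. Without the 5 libraries with neuron transcripts, Ugt8 was -0.21, Drp2 0.71, Ngfr 0.12 and L1cam 0.45, none called.

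In sham rats no member had an unadjusted p under 0.05 between sham above and sham below. EdgeR and DESeq2 called none of the 7 members. The share called over all 14556 genes was 0.0687%, 10 genes, and 776 had an unadjusted p under 0.05. The myelinating list was higher above in 11 of 13 genes, with a median log2 difference of 0.30 against -0.017 over all genes, and the non-myelinating list in 2 of 6, with a median of -0.65. Each side holds 1 library that stood high in Prx: sham above 22, without neuron transcripts, and sham below 28, with them. Of the cardiac muscle genes 4 of 5 were called higher in sham above by edgeR, and all 18 neuron genes were lower, with a median of -4.23 and none called; their part was not tested.

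The difference of the site differences, coarct above minus coarct below less sham above minus sham below, tests whether the site difference depends on surgery. It was negative in 6 of the 7 members and was -1.46 for Lgi4 (SE 0.443), -1.48 for Sox10 (SE 0.607), -1.34 for Prx (SE 0.592), -1.09 for Mal (SE 0.411) and -0.45 for Pmp22 (SE 0.197). The adjusted p in edgeR's test was 0.99994 for each. These 5 members had an unadjusted p under 0.05, of which Lgi4 had the lowest, 0.00349 in edgeR's test before adjustment. Of all 14556 genes 0% were called by edgeR and none by DESeq2, and 352 had an unadjusted p under 0.05 in edgeR. The myelinating list had 12 of 13 genes below 0 with a median of -1.34, against 0.0042 over all genes. All 6 non-myelinating genes had a value below 0, with a median of -1.15. Single libraries weighed heavily on these values. Without sham above 22, Prx was -0.87 and Lgi4 -1.21; without sham below 28, Prx was -1.84, Sox10 -2.07 and Lgi4 -1.80. Without the 5 libraries with neuron transcripts Lgi4 was -0.81, Prx -0.73 and Sox10 -0.64, and with sham above 22 left out as well they were -0.59, -0.28 and -0.45. The same-sign members share these libraries, so they are not separate support for a difference.

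**Figure D2:**
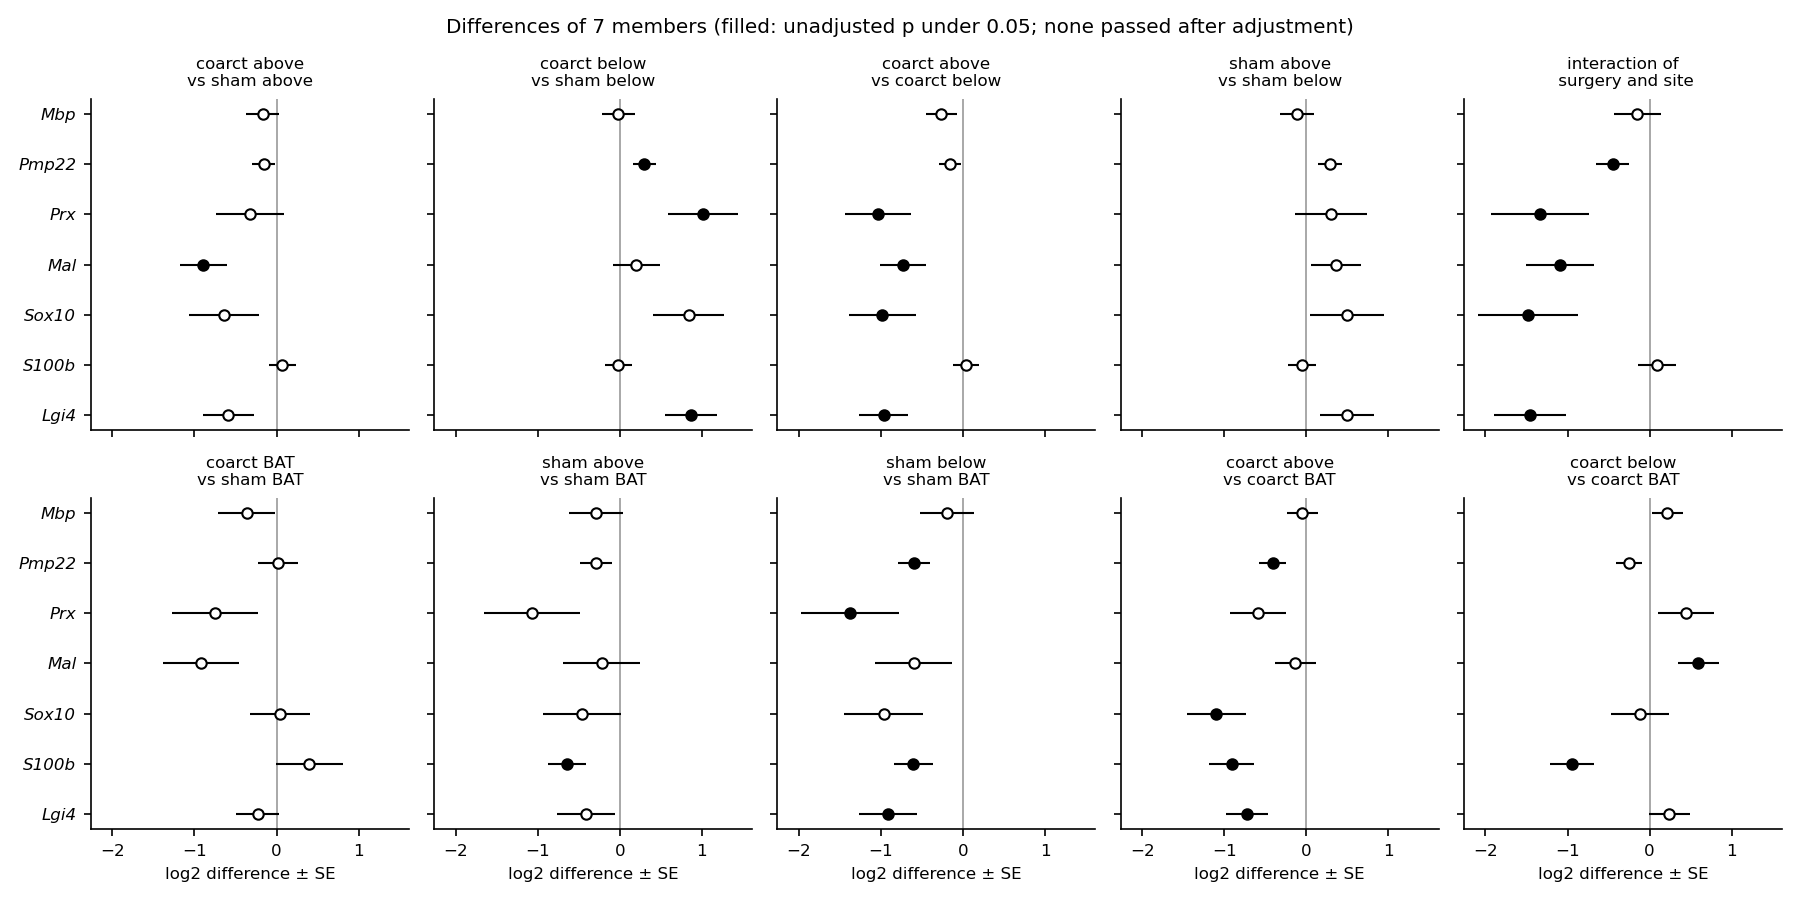
Log2 difference with its standard error of 7 members in 10 comparisons, from edgeR's quasi-likelihood fits; a filled point has an unadjusted p under 0.05 and none passed after adjustment. Except S100b, the members lie to the left of 0 for coarct above against coarct below and in the interaction, and Lgi4, Prx and Pmp22 lie to the right for coarct below against sham below.

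In BAT none of the 7 members was called between coarct BAT and sham BAT, and none had an unadjusted p under 0.05 in edgeR. DESeq2 called none, with 1 at an unadjusted p under 0.05. Of all 13644 genes 0% were called by edgeR and none by DESeq2, and 928 had an unadjusted p under 0.05 in edgeR. Prx averaged 6.57 ± 3.33 CPM in coarct BAT (SD, n = 5) and 13.2 ± 16.3 CPM in sham BAT (SD, n = 4), and Mal 2.503 ± 0.670 CPM and 5.69 ± 6.29 CPM in the same order. The sham spread came from sham BAT 22. Of 9 myelinating genes tested, 6 were lower in coarct BAT, with a median log2 difference of -0.36 against 0.042 over all genes.

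PVAT was compared with BAT within each kind of surgery, and these comparisons share the BAT libraries. All 5 cardiac muscle genes tested were called higher by edgeR in coarct above and in sham above than in BAT, and none of the 5 in coarct below or sham below; their part in the members' differences was not tested. All 7 tested members were lower in PVAT than in BAT for coarct above, sham above and sham below, and 3 of 7 for coarct below, so S100b, Pmp22 and Sox10 were lower in all 4 comparisons. S100b had the lowest p of the 3 in both coarct comparisons and for sham above. The log2 difference of S100b was -0.91 for coarct above (SE 0.271, adjusted p = 0.121), -0.95 for coarct below (SE 0.271, adjusted p = 0.0558), -0.64 for sham above (SE 0.234, adjusted p = 0.422) and -0.61 for sham below (SE 0.234, adjusted p = 0.339) in edgeR's test. Coarct above had at most 196 CPM, whereas 4 of the 5 coarct BAT libraries had 208 CPM or more. Coarct BAT 29 weighed most: without it the difference was -0.42 for coarct above and -0.45 for coarct below. Without sham BAT 22 it was -0.41 for sham above and -0.37 for sham below. Within the side of high 12S rRNA the difference was -0.24 for coarct above and -0.52 for coarct below, and within the low side, which holds coarct BAT 29, it was -1.60 and -1.41. DESeq2 called S100b in both coarct comparisons, and edgeR called it for coarct below with the replicate number as a block, where the difference was -0.80 (adjusted p = 0.0324).

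Of the other members, Sox10 differed by -1.10 between coarct above and coarct BAT (SE 0.359, adjusted p = 0.158), Lgi4 by -0.72 (SE 0.250, adjusted p = 0.176) and Pmp22 by -0.41 (SE 0.160, adjusted p = 0.222) in edgeR's test. Every coarct above library had less Sox10 than every coarct BAT library, at most 2.65 against at least 2.71 CPM, and likewise less Lgi4, at most 8.27 against at least 8.39 CPM. Before scaling, the Sox10 margin lay between 52 counts in coarct above 19 and 44 in coarct BAT 27. The share of all genes that separated these groups in this way was not counted. Sox10 and Lgi4 were called where the fit left out the neuron libraries, which are in neither of these groups but share the estimate of the spread. The differences there were -1.12 (adjusted p = 0.0348) for Sox10 and -0.74 (adjusted p = 0.0237) for Lgi4 in edgeR's test. The share of all genes called in that fit is not given here, and in the main fit it was 1.28%. In coarct below, Mal was higher than in coarct BAT by 0.59 (SE 0.248, adjusted p = 0.159 in edgeR's test), and the difference was -0.0064 without the neuron libraries. Sham below differed from sham BAT by -1.38 in Prx (SE 0.593, adjusted p = 0.418), -0.92 in Lgi4 (SE 0.357, adjusted p = 0.342) and -0.60 in Pmp22 (SE 0.194, adjusted p = 0.224) in edgeR's test. Without sham BAT 22 these values were -0.27, -0.65 and -0.32. Within the side of high 12S rRNA they were -0.28, -0.61 and -0.17, and within the low side, with 1 sham below library, -2.54, -1.80 and -1.09. No member was called in these 4 comparisons, in which edgeR called 1.28% of 14276 genes for coarct above, 4.2% for coarct below, 0.648% of 14190 genes for sham above and 0.81% for sham below. The unadjusted p was under 0.05 for 4, 2, 1 and 4 members in that order of groups, and the counts of all genes under that level are not given here.

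The myelinating list was lower than in BAT in 11 of 12 genes for coarct above, with a median of -0.39, and in 10 of 11 for sham below, with a median of -0.60. It was higher in 9 of 12 genes for coarct below, with a median of 0.52, as were all 6 non-myelinating genes, with a median of 1.34. The medians over all genes were -0.0083, -0.021 and 0.0021. For coarct below against coarct BAT edgeR called none of the 12 myelinating and none of the 6 non-myelinating genes, 2 of 10 genes of axon and glia contact, both higher, and 1 of 6 shared genes, lower. The neuron list moved with them: of 8 neuron genes tested all 8 were higher and 5 were called, with a median log2 difference of 3.70. Cntn2, a contactin at the edge of the node of Ranvier, rose to 3.65 ± 1.27 CPM in coarct below (SD, n = 6), against 1.04 ± 0.449 CPM in coarct BAT (SD, n = 5), a log2 difference of 1.61 (SE 0.341, adjusted p = 0.0131 in edgeR's test). Nfasc, the neurofascin of axon and paranodal glia, rose to 4.67 ± 3.93 CPM in coarct below, against 0.451 ± 0.311 CPM in coarct BAT, a log2 difference of 3.16 (SE 0.682, adjusted p = 0.0143 in edgeR's test). Gfra3, the receptor of the glial factor artemin in neurons and in Schwann cells, fell to 2.70 ± 0.532 CPM in coarct below, against 4.31 ± 1.13 CPM in coarct BAT, a log2 difference of -0.85 (SE 0.211, adjusted p = 0.0309 in edgeR's test). None of the 3 was called without the neuron libraries, where Cntn2 was 1.08, Nfasc 0.17 and Gfra3 -0.80, with 2 coarct below libraries left. Gfra3 also missed the threshold when any of 6 single libraries was left out, with an adjusted p of up to 0.0709. On log2(FPKM + 1) with limma the adjusted p was 0.0238 for Cntn2, 0.0652 for Nfasc and 0.0864 for Gfra3, and none of the 3 was called by edgeR within either side of the 12S rRNA split. The part of neurons in these genes, of which several are also neuronal, was not tested.

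Set against Sox10, Ngfr and Ncam1 of the 6 non-myelinating genes separated libraries whose ranges of Prx overlapped. Prx was 5.93 to 20.5 CPM in the 5 libraries with neuron transcripts and 12.4 to 37.6 CPM in the 3 others that stood high. Ratios of the other non-myelinating genes were not taken. In FPKM, the ratio of Ngfr to Sox10 was 4.40 to 5.78 in the 5 libraries with neuron transcripts, and 0.456 in sham above 22, 0.856 in sham BAT 22 and 1.26 in coarct BAT 30. The other 23 libraries ran from 0.745 to 4.92 in this ratio. Ncam1, the neural cell adhesion molecule that non-myelinating Schwann cells keep, had a ratio to Sox10 of 1.28 to 1.94 in the 5 libraries and of 0.549, 0.751 and 0.475 in sham above 22, sham BAT 22 and coarct BAT 30. The ratio of Prx to Sox10 overlapped, at 1.04 to 1.97 in the 5 libraries and 1.42 to 3.51 in the 3. The ratios of Ngfr and of Ncam1 were higher in each library with neuron transcripts than in each of the 3 that stood high in Prx without them. In CPM, other non-myelinating genes overlapped between the 5 and the 3. They were Scn7a (22.7 to 62.6 against 18.8 to 51.4), Chl1 (3.18 to 19.9 against 0.962 to 5.96) and Gfap (0.430 to 2.12 against 0.962 to 1.69). L1cam did not overlap (13.6 to 29.2 against 5.72 to 9.39 CPM). These libraries were picked out by Prx and by the neuron genes, so their values are a description without a test. Ngfr is also a receptor of sympathetic neurons, and the part of neurons in the ratios of Ngfr and Ncam1 was not tested.

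**Figure D3:**
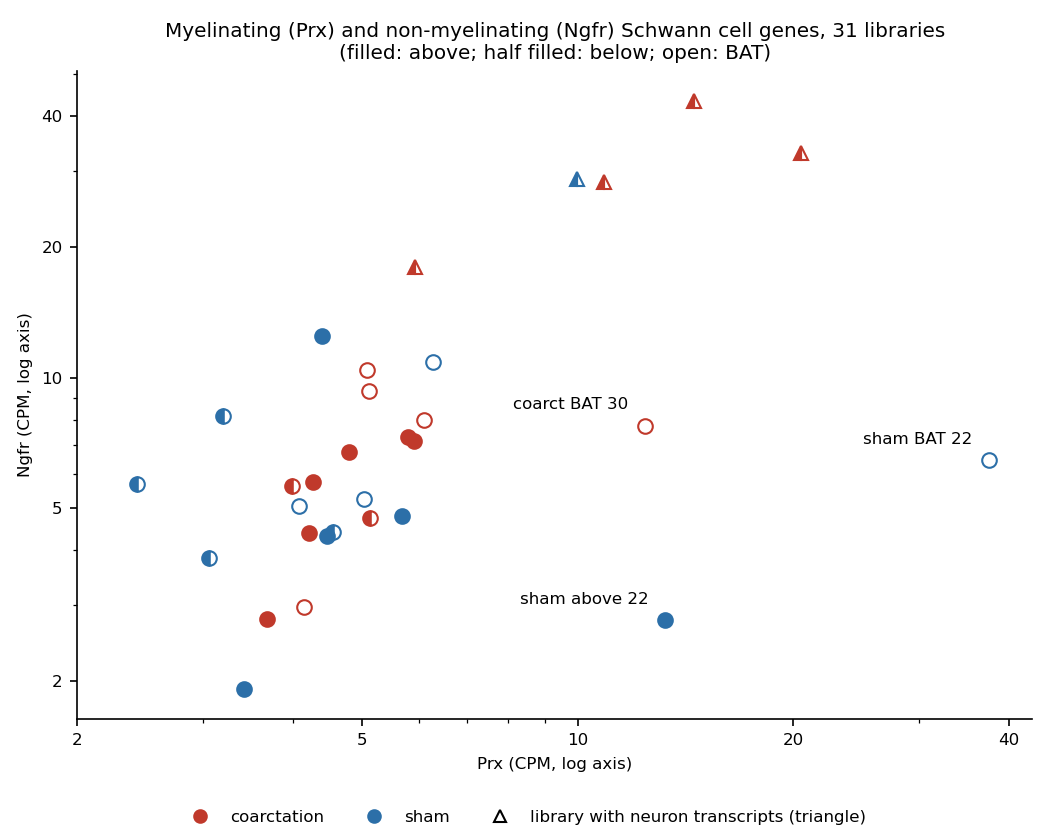
Level of Prx on the horizontal axis and of Ngfr on the vertical axis, both in CPM and on log axes, in the 31 libraries; filled points are PVAT above the ligature, partly filled points below it and open points BAT, red is coarctation and blue is sham. The triangles, the 5 libraries with neuron transcripts, lie at 18.0 CPM of Ngfr or more, whereas sham above 22, sham BAT 22 and coarct BAT 30 have 12.4 CPM of Prx or more at 2.76 to 7.75 CPM of Ngfr. Ngfr is also a gene of sympathetic neurons.

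In CPM, Ngfr was 18.0 to 43.5, L1cam 13.6 to 29.2 and Ncam1 4.95 to 12.2 in the 5 libraries with neuron transcripts. In the 6 other libraries from below the ligature the ranges were 3.84 to 8.16, 1.57 to 4.02 and 0.738 to 1.68 CPM. Among members in the same libraries, Lgi4 (13.4 to 25.5 against 4.33 to 7.50 CPM), Prx (5.93 to 20.5 against 2.43 to 5.12 CPM) and Sox10 did not overlap. Mbp (61.8 to 96.7 against 53.5 to 74.9 CPM), Pmp22 (81.6 to 160 against 72.0 to 112 CPM), Mal (3.31 to 6.47 against 2.41 to 3.80 CPM) and S100b did. These libraries were split by the neuron genes, and the share of all genes that also separated them was not counted. Of 7 genes linked to repair Schwann cells, the state that follows nerve injury, Gdnf had no count in 29, Shh in 26 and Olig1 in 18 of the 31 libraries. The filter on low counts kept 3 of the 7. Of these, 1 had an unadjusted p under 0.05 in edgeR's test, only between sham above and sham below, where it was not called. The summed CPM of the 7 repair genes was 2.78 to 6.89 in all libraries, and medians by group were 5.15 in coarct above, 5.89 in sham above, 5.31 in coarct below, 3.42 in sham below, 4.37 in coarct BAT and 4.49 in sham BAT.

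**Figure D4:**
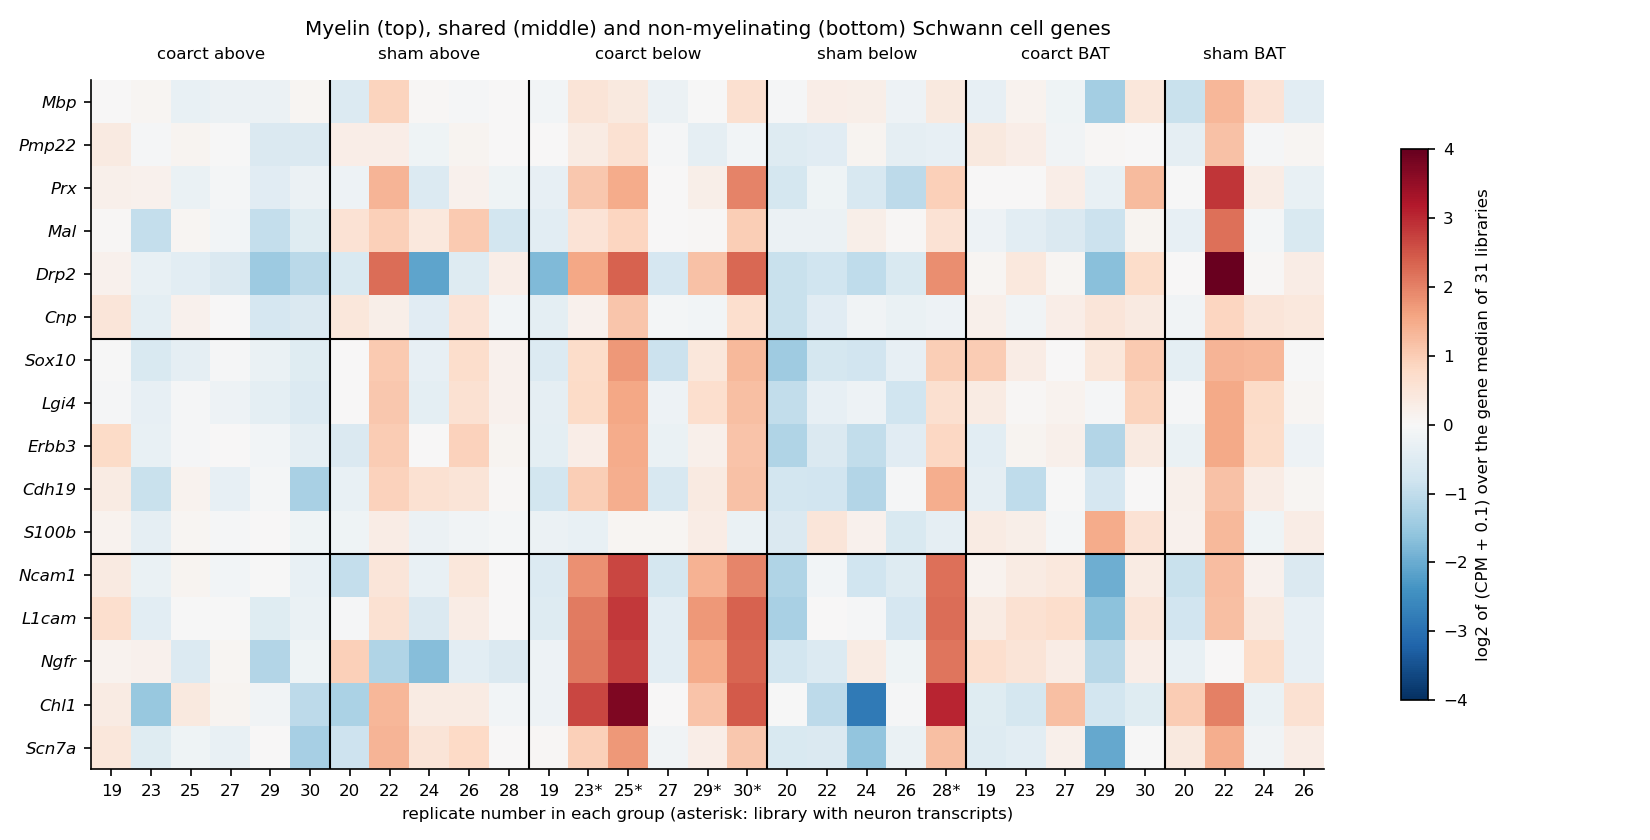
Level of Schwann cell genes in each of the 31 libraries as the log2 of (CPM + 0.1) over the gene's median of all libraries; rows are myelinating, shared and non-myelinating genes from top to bottom, columns are libraries by group, and asterisks mark libraries with neuron transcripts. The asterisked columns are high in Sox10, Lgi4, Ngfr and L1cam, and sham BAT 22 has the highest value of Prx, 37.6 CPM.

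The members' likeness to each other over the 31 libraries was uneven. As a description, with library, depth and group shared by all points, Pearson's r of log2 CPM was 0.921 between Sox10 and Lgi4, the highest of 28 pairs. It was 0.871 between Prx and Lgi4, 0.840 between Prx and Mag and 0.742 between Prx and Sox10. Mbp and Pmp22, whose proteins lie in the same compact myelin, had an r of 0.103, and Mbp and S100b the lowest, -0.120. S100b had an r of 0.026 with Mal and 0.074 with Mag.

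Outside the members, 11617 genes with a mean of at least 1 CPM were compared in the same way, and the 3 most alike of each member were taken. Itgb4, the integrin chain of the Schwann cell basal lamina, was among the 3 for 4 members: Sox10 (r = 0.894), Lgi4 (r = 0.898), Mal (r = 0.677) and Mag (r = 0.751). Aatk, a neural kinase, was among them for Lgi4 (r = 0.923), Prx (r = 0.865) and Mag (r = 0.768). The gene most like Prx was Drp2 (r = 0.876), and Gpr37l1, a receptor of glia, was among the 3 for Sox10 (r = 0.879). Mal was most like Ndrg1 (r = 0.754), a Schwann cell gene that is also made widely. For the 3 abundant members the genes were of other kinds. Pmp22 was most like Efemp2 (r = 0.796), a matrix protein of elastic fibres, and Cd14 (r = 0.793), a receptor of macrophages. Mbp was most like Foxo1 (r = 0.732), a transcription factor of insulin signalling, and Lss (r = 0.723), an enzyme of sterol synthesis. S100b was most like Sult1a1 (r = 0.847), a sulfotransferase, and Fcgrt (r = 0.829), the receptor that recycles IgG.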

How the data were processed

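The authors deposited whole-number read counts per Ensembl gene for 31 libraries, without normalisation, and FPKM values, which the authors scaled to gene length and library total. Each equalled count over length and total with a largest relative deviation of 6.85e-15. STAR 2.5, HTSeq 0.6.1 and DESeq2 1.24.0 are named per the submitters' processing notes. Genome build and use of strand are not given in the sources used, so reads of overlapping genes on opposite strands cannot be told apart. Names differed between the tables for 25 entries, none of them a member. CPM is the count scaled to the library total, 15713160 to 26530733. Low counts carry counting error in addition to the spread between libraries.

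Tests on counts used the quasi-likelihood F test of edgeR 4.0.16 in R 4.3.3, with TMM factors and the filterByExpr filter, adjusted by Benjamini-Hochberg over all genes and called under 0.05. The scripts were tested on simulated data. One fit of the 22 PVAT libraries gave 5 comparisons, BAT used 9 libraries, and PVAT against BAT used 14 sham or 17 coarct libraries. The SE was the absolute log2 difference over the square root of F. Alternatives were the Wald test of DESeq2 1.42.0, DESeq2 size factors, no filter, limma 3.58.1 on log2(FPKM + 1) and log2(FPKM + 0.1), all libraries in one fit, the 12S rRNA split as a term and within sides, fits without the 5 neuron libraries, a block for the title number, and leaving out each library. A fit without sham above 22 as well was chosen after seeing the data.

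The genes and lists were chosen with earlier results of these data known. From each list the text names genes that passed (up to 4 by lowest p), otherwise up to 3 with the lowest p in a comparison described, and up to 4 of high level. The 3 genes most like a member were those with the highest r of log2 CPM (prior count 2, mean of at least 1 CPM). Ncam1 and the repair genes as used in the ratios and ranges were chosen after their values were seen. Title numbers were taken to pair libraries only where every same-number pair's deviations from the group means correlated over 0.1, which held for sham below and sham BAT (4 of 4 pairs, 0.184 to 0.350). It did not hold for coarct above and below (5 of 6 pairs, 0.0419 to 0.380) or the other groups. Even for sham below against sham BAT, the differences, SEs and p-values in the text come from the main fit, which had no block. Pairs of different numbers were not correlated for comparison, so the rule cannot settle whether a number is 1 rat. Some genes of the nerve sheath are not reported here.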

Additional observations from a re-analysis of the deposited data

Results flagged for a closer look

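In 10 of 48 sets of a gene and a group, the highest library stood apart from the rest of its group by Dixon's test at the 95% level. For normally distributed values chance alone would flag about 1 set in 20. The test was run on CPM without a log and included the low counts of Mag, so that rate cannot be applied here. The sets share libraries. Sham BAT 22 stood apart in Prx (37.6 CPM, next highest 6.28), Mal (15.1 CPM, next 3.03) and Mag (1.244 CPM, next 0.114). Sham above 22 stood apart in Prx (13.2 CPM, next 5.69) and S100b (218 CPM, next 168). Coarct BAT 30 stood apart in Prx (12.4 CPM, next 6.10) and Mag (0.658 CPM, next 0.0494). Sham below 28 stood apart in Prx (9.99 CPM, next 4.55) and Sox10 (5.41 CPM, next 2.14). Sham below 24 stood apart in Pmp22 (112 CPM, next 83.0). Prx is among the genes of 4 of these 5 libraries, and sham below 28 is also 1 of the 5 libraries with neuron transcripts.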

How the results depend on the processing

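Of 273 values of the 24 member differences under other settings, 259 kept direction and side of the threshold, 7 passed it and 7 turned direction. With a library left out, 310 of 313 did so and 3 passed. Turned without the neuron libraries were, for coarct above against coarct below, Sox10 (0.44), Prx (0.081), Lgi4 (0.030), Drp2 (0.71), Ngfr (0.12) and L1cam (0.45). With sham above 22 left out too they were 0.42, 0.062, 0.011, 0.69, 0.098 and 0.43. Without the neuron libraries Mal turned to -0.0064 for coarct below against coarct BAT, and Fa2h to -1.89 for coarct below against sham below and 0.75 in the interaction. The cause was not tested.

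Members called changed in 2 comparisons. For coarct above against coarct BAT, 1 was called by the Wald test, 2 without the neuron libraries and 0 to 1 with a library left out. For coarct below against coarct BAT, 1 was called by the Wald test, in one fit of all libraries, with the rRNA term and with the replicate block, and 0 to 1 with a library left out.

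Counts over all genes moved more. The Wald test called 8 for coarct above against sham above, 1 for coarct below against sham below, 222 for coarct above against coarct below, 44 for sham above against sham below, and 232, 327, 507 and 1389 for sham above, sham below, coarct above and coarct below against BAT. Without the neuron libraries 1 was called for coarct below against sham below, for coarct above against coarct below and in the interaction, 0 for sham above against sham below and 82 for coarct below against BAT, and the first 4 were 1, 1, 1 and 0 without sham above 22 as well. One fit called 183 for coarct above against coarct below and 16 for sham above against sham below. On log2(FPKM + 1) and log2(FPKM + 0.1), 4 and 8 were called for coarct above against coarct below and 34 and 43 for sham below against BAT, with 60 on log2(FPKM + 1) for coarct above against BAT. On the high and low rRNA side, 0 and 9 were called for coarct above against coarct below, and 1 and 48, 0 and 8, 10 and 16, and 19 and 0 for the BAT comparisons in the order above, with 0 on the high side for sham above against sham below. With a library left out the counts were 0 to 0 for coarct above against sham above and the interaction, 0 to 169 for coarct below against sham below (169 without sham below 28), 12 to 185 for coarct above against coarct below, 8 to 23 for sham above against sham below, 0 to 1 for coarct BAT against sham BAT (1 without sham BAT 22), and 59 to 100, 47 to 157, 89 to 913 and 284 to 2621 for the BAT comparisons.

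The replicate block for the title number called 154 genes for sham below against sham BAT, where the rule for pairing was met, against 115 without it, and no member. Elsewhere that rule was not met, and the block called 42 genes for coarct above against coarct below, 56 for sham above against sham below, 283 for coarct above against BAT and 958 for coarct below against BAT. It changed no other member call than S100b above. Mag had no test with the filter, and without it an adjusted p of at least 0.437 in edgeR's test. At Mag's counts, and with 4 to 6 libraries a group, small differences were not detectable.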
